A study of Mus musculus with 8 samples.

Results

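The genes described here are the chaperones, folding enzymes, degradation factors and stress sensors of the endoplasmic reticulum, with the genes of its unfolded protein response. They were chosen by symbol from a list of 34 genes, and all 34 were found among the 49492 genes of the count table and passed the filter on low counts, which 17940 genes passed. RNA was measured in 8 libraries of cells described as CD8+ T cells, taken with CD8a microbeads from subcutaneous B16 tumours, a mouse melanoma line, on day 14 after implantation into female mice. The 4 knockout libraries, titled KO, came from Lckcre-PLPP1fl/fl mice, in which the Lck promoter drives Cre in T-lineage cells against loxP-flanked alleles of Plpp1, a phosphatase of phosphatidic acid and related lipids. The 4 control libraries, titled WT, came from PLPP1fl/fl mice, which carry the same alleles without Cre, so an effect of Cre itself and one of the deletion cannot be told apart. The sources used here do not give the age of the mice, the deleted exon or whether each library came from 1 animal. The p-values therefore measure only how far these libraries scatter, which may be technical scatter.

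Proteins that enter the secretory pathway are threaded through the Sec61 channel into the endoplasmic reticulum, where chaperones hold them, lectins follow their sugars and disulfide isomerases join their cysteines. Chains that fail to fold are drawn back to the cytosol and degraded. When unfolded chains build up, the membrane sensors IRE1, PERK and ATF6 raise the output of chaperone genes, in part through the transcription factor XBP1. PERK also slows translation by phosphorylating eIF2α. In T cells these genes are known to be induced on activation, when cells make cytokines and cytotoxic proteins in quantity.

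Total counts ran from 44118131 to 57716522 in the knockout libraries and from 49856353 to 61999941 in the controls. Plpp1 held 18, 32, 29 and 19 counts in the knockouts and 61, 50, 35 and 62 in the controls, and 102 bases of its exons are shared with Skiv2l2, which lies on the other strand. Levels are given in CPM, the counts-per-million scale, after TMM scaling of the library sizes. On that scale Plpp1 averaged 0.498 CPM in knockouts and 0.892 in controls, and Skiv2l2 408 CPM in knockouts and 327 in controls. The strand setting is not given, so the Plpp1 counts may include Skiv2l2 reads and check the deletion only weakly. Although the mice are described as female, Y-linked Ddx3y stood at 78.4 ± 3.1 CPM in knockouts and 0.0703 ± 0.043 CPM in controls, and Xist, the RNA of the inactive X chromosome, at 51.1 ± 4.4 CPM in knockouts and 747 ± 27 CPM in controls (SD, n = 4 each). Sex-chromosome expression and genotype therefore cannot be told apart in any result below. The T cell gene Cd3e stood at 79.2 ± 4.8 CPM in knockouts and 113 ± 2.0 CPM in controls, and Cd8a at 239 ± 7.8 CPM in knockouts and 331 ± 5.4 CPM in controls, while Cd4 was at 1.52 ± 0.096 CPM in knockouts and 2.32 ± 0.16 CPM in controls (SD, n = 4 each). By the test described with the members, 32.8% of all tested genes rose and 31.6% fell, 64.3% in all, so calls among markers are common too. Of 10 CD8+ T cell markers 2 rose and 8 fell. Together they summed to 2853 to 3045 CPM in knockouts against 2974 to 3177 in controls, ranges that overlap. Among markers of other cells, 4 for CD4+ T cells (0 higher, 1 lower) summed to 31.9 to 35.5 CPM in knockouts against 36.1 to 38.3 in controls, and 10 for macrophages (1 higher, 0 lower) to 4.72 to 5.90 CPM in knockouts against 4.21 to 5.22 in controls. The 8 for B cells (1 higher, 2 lower) summed to 4.10 to 4.77 CPM in knockouts against 5.70 to 7.06 in controls, the 6 for natural killer cells (4 higher, 1 lower) to 51.1 to 55.8 CPM in knockouts against 36.2 to 40.3 in controls, and the 6 for neutrophils (0 higher, 1 lower) to at most 0.909 CPM in any library. The 8 plasma cell markers, of which Derl3 is also a member here, gave 2 higher and 1 lower and summed to 103 to 112 CPM in knockouts against 189.6 to 202 in controls, most of it Ighm, while Jchain stood at 0.361 ± 0.073 CPM in knockouts and 0.504 ± 0.097 CPM in controls and Tnfrsf17 was at 0 in knockouts. The 8 dendritic markers (2 higher, 1 lower, Cd209a at 0) summed to 252 to 273 CPM in knockouts against 30.7 to 37.04 in controls, of which Batf3 made 256 and 30.4 CPM on average, and the 8 stromal markers (0 higher, 2 lower, Pdgfra at 0) to 25.2 to 30.6 CPM in knockouts against 99.8 to 112 in controls, mostly Pecam1. The 8 melanoma markers (0 higher, 2 lower) summed to 6.26 to 7.71 CPM in knockouts against 19.6 to 21.5 in controls, with Tyr, Tyrp1 and Mlana at 0 in all libraries. The part of these differences in the results below was not tested.

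Several promoters of this gene group hold an element known to be bound by factors of the unfolded protein response. The members include genes chosen for that response, so its frequency among them is not independent of the choice. The endoplasmic reticulum stress element (ERSE) consists of CCAAT, a spacer of 9 bases and CCACG, spelled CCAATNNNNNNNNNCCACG, and is known as the binding site of NF-Y with ATF6 or XBP1. It was searched on both strands of RefSeq promoter windows of GRCm38.p6, each with 250 bases before and 50 after a gene's start. Windows were found for 28 members, and not for Manf, Hyou1, Ppp1r15b, Derl1, Sec61a1 and Atf6, with Ero1l and Ero1lb matched through their RefSeq names Ero1a and Ero1b. The element was present in the windows of 10 of these 28 genes (35.7%), against 39 of all 32851 windows (0.119%). Each match is written from CCAAT to CCACG, with these 2 blocks in capitals and the spacer in lower case, in the order of the genes' fold changes from the highest to the lowest.
Hspa5 (sense strand): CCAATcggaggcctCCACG
Creld2 (antisense strand): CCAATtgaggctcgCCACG
Pdia6 (sense strand): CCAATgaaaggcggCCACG
Hsp90b1 (antisense strand): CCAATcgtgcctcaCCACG
Hsp90b1 (sense strand): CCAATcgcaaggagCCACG
Canx (sense strand): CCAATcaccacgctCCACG
Derl3 (antisense strand): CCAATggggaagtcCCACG
Calr (antisense strand): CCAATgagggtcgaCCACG
Syvn1 (sense strand): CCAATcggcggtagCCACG
Dnajc3 (sense strand): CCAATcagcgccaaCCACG
Ero1lb (antisense strand): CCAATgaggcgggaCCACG
The spacers differ between the genes, and 5 of the 11 matches lie on the antisense strand of their gene. Hsp90b1 is the one member with a pair of matches. A related element, ERSE-II, which has ATTGG, any 1 base and CCACG, was found in Herpud1 at chr8:94386377-94386387, before the start, and in Dnajb11 at chr16:22857852-22857862, just after it (7.14% of the 28), against 0.0365% of all windows. The XBP1 core TGACGTG was found in Hspa5 and Vcp, and in 2.01% of all windows. The ATF4-type element TGATGNAAT was found in none of the 28 genes, and in 0.965% of all windows. A match describes letters in a window and does not show that a factor bound there.

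The 250 bases before the start, as RefSeq places it, are shown for 5 genes on which the comparison below turns, in lower case with ERSE blocks and TGACGTG in capitals, each read 5′ to 3′ on its gene's strand, so that a match on the antisense strand reads CGTGG before ATTGG. Hspa5 (chr2:34771840-34772089, plus strand) and Hsp90b1 (chr10:86705445-86705694, minus strand) rose and hold the element. Dnajc3 (chr14:118937682-118937931, plus strand) and Ero1lb (chr13:12565633-12565882, plus strand) fell and hold it too. The fall of Ero1lb was marginal, as described below. Ero1l (chr14:45318573-45318822, minus strand) rose most and has no such letters in this window.
Hspa5: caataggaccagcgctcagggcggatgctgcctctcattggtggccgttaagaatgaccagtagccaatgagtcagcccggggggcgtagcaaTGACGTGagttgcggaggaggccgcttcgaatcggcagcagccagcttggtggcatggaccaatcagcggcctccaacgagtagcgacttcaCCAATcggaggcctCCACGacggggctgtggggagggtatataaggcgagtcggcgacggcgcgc
Hsp90b1: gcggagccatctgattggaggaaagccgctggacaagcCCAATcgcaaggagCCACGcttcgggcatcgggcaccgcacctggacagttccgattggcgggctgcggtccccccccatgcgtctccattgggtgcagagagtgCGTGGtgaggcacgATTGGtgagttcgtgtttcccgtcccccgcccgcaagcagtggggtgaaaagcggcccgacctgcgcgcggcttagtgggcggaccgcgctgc
Dnajc3: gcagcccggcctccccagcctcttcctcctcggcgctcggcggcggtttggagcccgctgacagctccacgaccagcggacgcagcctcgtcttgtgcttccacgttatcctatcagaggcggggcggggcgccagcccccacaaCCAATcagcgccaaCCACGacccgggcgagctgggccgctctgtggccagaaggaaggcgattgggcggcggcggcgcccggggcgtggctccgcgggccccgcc
Ero1lb: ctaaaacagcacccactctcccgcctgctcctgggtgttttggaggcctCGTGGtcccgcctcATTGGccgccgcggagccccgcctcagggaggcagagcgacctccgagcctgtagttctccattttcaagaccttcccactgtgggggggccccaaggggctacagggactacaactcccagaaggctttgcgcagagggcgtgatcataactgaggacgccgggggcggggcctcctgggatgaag
Ero1l: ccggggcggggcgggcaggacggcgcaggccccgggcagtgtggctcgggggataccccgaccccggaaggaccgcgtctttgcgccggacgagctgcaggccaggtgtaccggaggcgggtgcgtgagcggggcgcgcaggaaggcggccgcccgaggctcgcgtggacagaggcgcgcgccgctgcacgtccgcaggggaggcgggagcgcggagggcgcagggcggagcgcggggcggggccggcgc

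Most of the 34 genes were modestly higher in the knockout libraries. By edgeR's quasi-likelihood test with p-values adjusted by Benjamini-Hochberg across the 17940 genes, 25 rose (73.5%) and 2 fell, Dnajc3 and Ero1lb, and 7 did not pass an adjusted p of 0.05. Among all tested genes 32.8% rose and 31.6% fell, or 64.3% in either direction, so a call in itself was common in this comparison. Abundant genes were called more often. Among genes with a mean of at least 10 CPM 43.4% rose and 34.2% fell, or 77.6% in all, and of the 30 members at that level 25 rose and 1 fell. At a mean of at least 1 CPM 72.1% of genes were called, 37.7% higher and 34.4% lower. The median log2 fold change of knockout over control was 0.33 over the 34 genes and -0.01 over all tested genes, and the 34 values ran from -0.27 to 1.18. In 24 members (70.6%) every knockout library lay above every control library and in 2 (5.88%) below, against 30.1% and 28.2% of all tested genes. Summed over the 34 genes the level was 9587 ± 142 CPM in knockouts and 7921 ± 193 CPM in controls (SD, n = 4 each). In a bulk sample fewer cells of a type and less RNA per cell cannot be told apart, so these are differences in the RNA pool of the sorted cells. Of a list of 21 immediate early and heat shock genes, a possible sign of handling, 16 rose and 2 fell in the same libraries, and they summed to 21883 to 23009 CPM in knockouts against 17052 to 18521 in controls. Their part in the result was not tested.

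**Figure D1:**
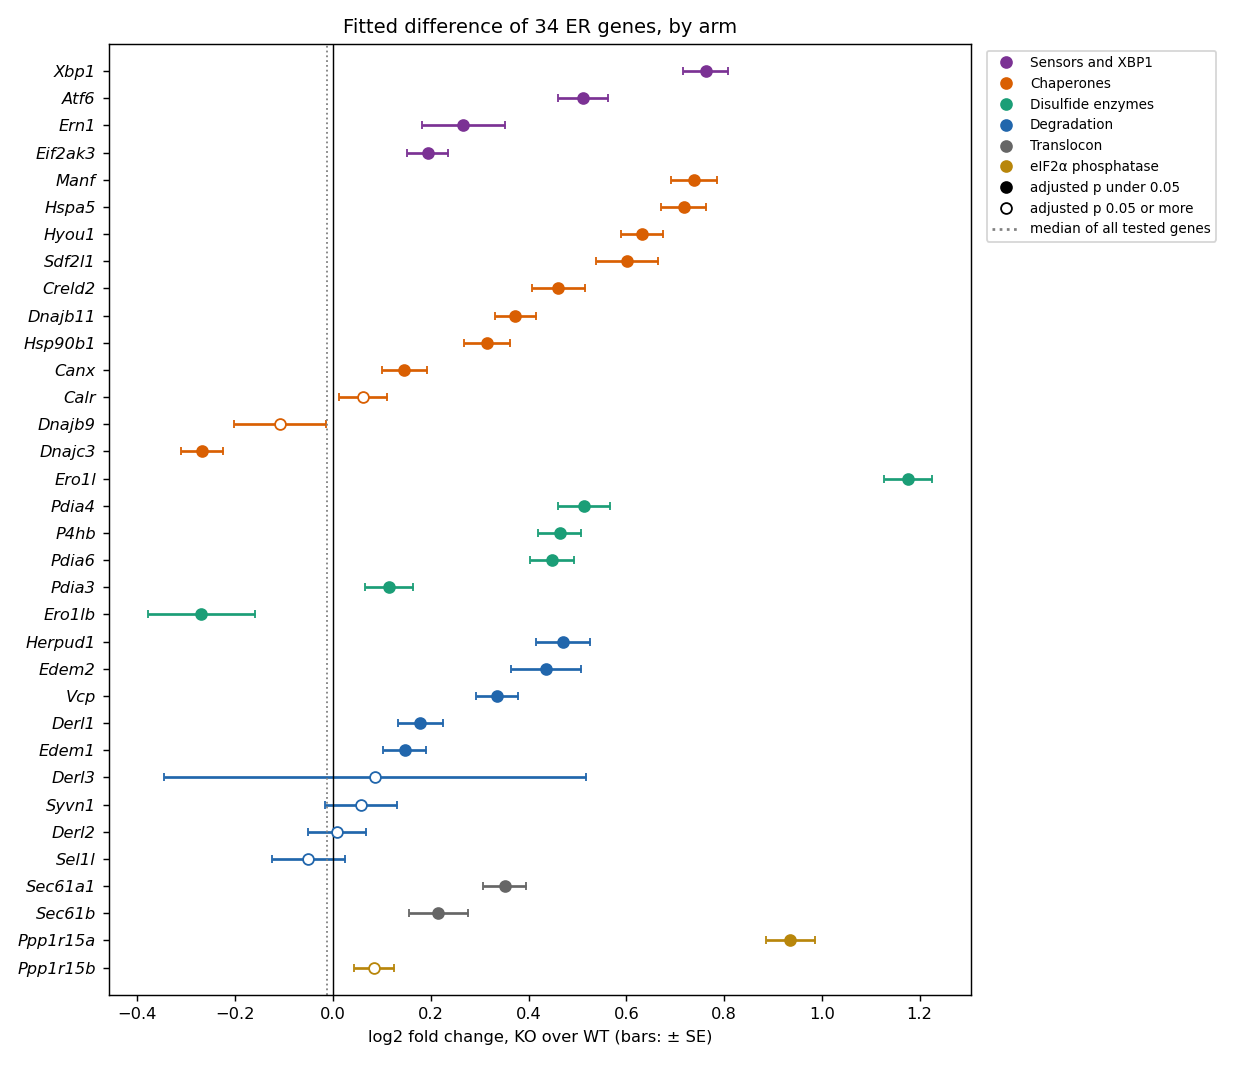
Fitted log2 fold change of knockout (KO) over control (WT) for each of the 34 genes, grouped by arm, with bars of 1 standard error; filled points passed an adjusted p of 0.05 in edgeR's quasi-likelihood test. Ero1l lies furthest right at 1.18, Dnajc3 and Ero1lb lie left of 0 at -0.27 and -0.27, and the dotted line marks the median of all tested genes.

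The sizes of these differences were small for most members. Only Ero1l passed a fitted 2-fold rise, as did 5.8% of all tested genes. Tested against a fold of 1.5 with edgeR's glmTreat, 5 members (14.7%) were higher, against 8.45% of all tested genes, and 9.08% of all genes were lower. These 5 were Ero1l, Ppp1r15a, Xbp1, Manf and Hspa5.

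All 4 sensor and transducer genes rose, with a median log2 fold change of 0.39. Xbp1, the transcription factor whose RNA is spliced by IRE1, lies on chr11:5520659-5525893 (plus strand) of GRCm38 and had 70.3, 69.1, 72.2 and 76.8 CPM in the knockout libraries, against 44.1, 42.4, 41.6 and 41.8 CPM in the controls. The 2 groups were far apart, and the log2 fold change was 0.76 (SE 0.046, adjusted p = 1.0e-12). Atf6, a membrane-bound transcription factor freed by cleavage in the Golgi, had 32.9, 32.8, 31.3 and 32.1 CPM in the knockout libraries, against 21.5, 23.6, 21.9 and 23.6 CPM in the controls. Its groups did not overlap either, with a log2 fold change of 0.51 (SE 0.051, adjusted p = 8.0e-09). Eif2ak3, which encodes the eIF2α kinase PERK, had 78.97, 81.1, 80.4 and 78.5 CPM in the knockout libraries, against 67.00, 70.4, 71.4 and 70.1 CPM in the controls. The difference was small but the groups were separate, at 0.19 (SE 0.042, adjusted p = 3.2e-04). Ern1, which encodes the kinase and ribonuclease IRE1α, had 11.5, 13.2, 13.3 and 9.94 CPM in the knockout libraries, against 10.1, 10.8, 9.69 and 9.34 CPM in the controls. Knockout replicate 4 lay within the range of the controls, and the log2 fold change was 0.27 (SE 0.084, adjusted p = 0.0084). The 4 genes summed to 196 ± 1.7 CPM in knockouts and 145 ± 1.8 CPM in controls (SD, n = 4 each).

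Gene counts do not tell the unspliced from the spliced Xbp1 RNA. IRE1 removes a segment of 26 bases, bounded by a pair of CNGCAGC sites that a search of the annotated Xbp1 transcripts of GENCODE M21 on GRCm38 (chromosome 11, plus strand) found in 3 of them. The stretch from the first site to the second is shown because the counts of this gene rest on both forms, with the sites in capitals. The removed segment begins with the CAGC of the first site and ends with the CTG of the second, so the printed stretch is longer.
Xbp1 segment: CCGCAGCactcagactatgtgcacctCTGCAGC
The share of spliced RNA, and with it the activity of IRE1, was not measured.

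**Figure D2:**
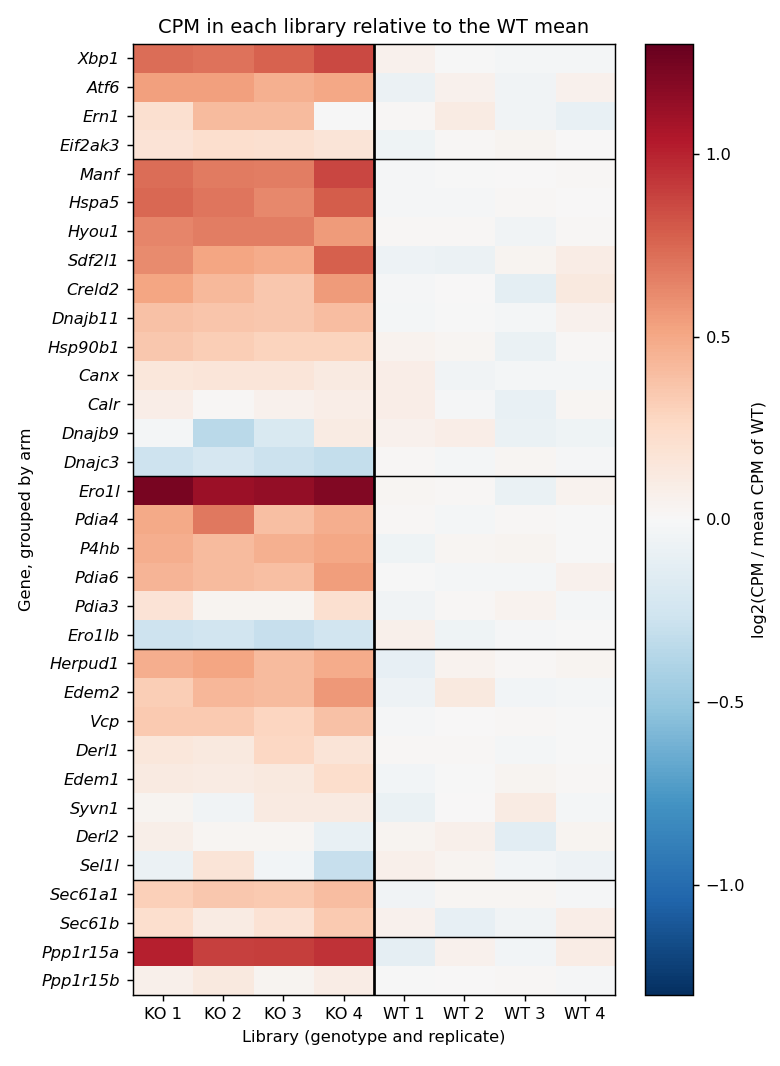
Level of 33 of the genes in each of the 8 libraries as log2 of its CPM over the mean CPM of the 4 control libraries, with knockout libraries on the left; Derl3, at under 1 CPM, is left out. Xbp1, Hspa5, Manf, Ero1l and Ppp1r15a are red in all 4 knockout libraries, while Dnajc3 and Ero1lb are blue there.

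Chaperones held most of the RNA of the group, and 8 of 11 rose and 1 fell, with a median of 0.37. Hspa5, which encodes BiP, the Hsp70 of the endoplasmic reticulum and the classic target of the unfolded protein response, lies on chr2:34771970-34777547 (plus strand) of GRCm38 and had 693, 669, 633 and 713 CPM in the knockout libraries, against 408, 409, 417 and 414 CPM in the controls. The lowest knockout library stood far above the highest control, and the log2 fold change was 0.72 (SE 0.046, adjusted p = 3.6e-12). Its share of the summed CPM of the 34 genes was 6.73% to 7.36% in knockouts and 5.01% to 5.44% in controls. Manf, a small protein that binds BiP and can be secreted, had 145, 139.5, 138 and 159 CPM in the knockout libraries, against 86.5, 86.7, 87.7 and 87.8 CPM in the controls. It was the largest rise among the chaperones, at 0.74 (SE 0.047, adjusted p = 2.4e-12). Up to 4.71% of its exonic bases are shared with any 1 of 3 neighbouring genes. Hyou1, the exchange factor GRP170 that recharges BiP, had 213, 218, 218 and 202 CPM in the knockout libraries, against 139, 138, 133 and 139 CPM in the controls. The log2 fold change was 0.63 (SE 0.043, adjusted p = 1.0e-11), again with no overlap.

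The partners of BiP did not move alike. Sdf2l1 and Dnajb11, which form a complex that brings BiP to its clients, both rose, by 0.60 (SE 0.063) and 0.37 (SE 0.042) on the log2 scale. Sdf2l1 had 34.5, 32.3, 31.4 and 38.7 CPM in the knockout libraries, against 21.6, 21.4, 23.2 and 24.1 CPM in the controls. Dnajb11 averaged 204 ± 3.0 CPM in knockouts and 157 ± 4.4 CPM in controls (SD, n = 4 each). Dnajc3, the co-chaperone p58IPK, lies on chr14:118937932-118981702 (plus strand) and went the other way, with 59.4, 61.8, 59.3 and 57.9 CPM in the knockout libraries, against 72.5, 70.6, 72.8 and 71.3 CPM in the controls. Every knockout library lay below every control, at a log2 fold change of -0.27 (SE 0.042, adjusted p = 6.9e-06). Dnajb9, the co-chaperone ERdj4 and a known XBP1 target, had 7.14, 5.69, 6.35 and 7.83 CPM in the knockout libraries, against 7.56, 7.73, 6.83 and 6.98 CPM in the controls. Its groups overlapped and the test was not passed, at -0.11 (SE 0.094, adjusted p = 0.32). Creld2, a resident protein that is induced by stress of this compartment, rose by 0.46 (SE 0.054). It stood at 85.7 ± 5.4 CPM in knockouts and 62.3 ± 4.6 CPM in controls (SD, n = 4 each).

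Hsp90b1 and the lectin chaperones Calr and Canx were the most abundant of the 34 genes per length, with small differences. Hsp90b1, the Hsp90 of the compartment (GRP94), had 2321, 2267, 2226 and 2219 CPM in the knockout libraries, against 1878, 1843, 1705 and 1837 CPM in the controls. The groups were separate and the log2 fold change was 0.31 (SE 0.047, adjusted p = 3.8e-06). Of its exonic bases 10.3% are shared with 1810014B01Rik on the opposite strand, which stood at 287 CPM in knockouts and 181 CPM in controls. On its own strand 3.30% are shared with Gm25745, at 785 CPM in knockouts and 599 CPM in controls, and 2.08% with Gm15344, at 359 CPM in knockouts and 276 CPM in controls. Canx, the membrane lectin calnexin, had 1050.0, 1059, 1055 and 1025 CPM in the knockout libraries, against 1006, 919, 929 and 933 CPM in the controls, a log2 fold change of 0.15 (SE 0.046, adjusted p = 0.0081). Calr, its soluble counterpart calreticulin, had 2232, 2125, 2190.5 and 2242 CPM in the knockout libraries, against 2234, 2082, 1968 and 2143 CPM in the controls. The groups overlapped, and the log2 fold change of 0.06 (SE 0.049, adjusted p = 0.29) did not pass. Calr was nevertheless the highest of the 34 per length in both genotypes, at 763 ± 18 CPM per kilobase in knockouts and 732 ± 39 in controls (SD, n = 4 each).

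Among disulfide enzymes 5 of 6 rose and 1 fell, with a median of 0.46. Ero1l, the oxidase that reloads disulfide isomerases and a gene also known to respond to low oxygen, lies on chr14:45283092-45318572 (minus strand) of GRCm38 and had 52.3, 48.3, 49.3 and 51.5 CPM in the knockout libraries, against 22.6, 22.6, 20.9 and 22.98 CPM in the controls. It showed the largest difference of the 34 genes, a log2 fold change of 1.18 (SE 0.049, adjusted p = 1.5e-15). Its paralog Ero1lb, at far lower level, had 2.67, 2.70, 2.61 and 2.71 CPM in the knockout libraries, against 3.37, 3.10, 3.19 and 3.22 CPM in the controls. Its groups were separate too but in the other direction, at -0.27 (SE 0.11, adjusted p = 0.036). Within a library, where no scaling enters, the ratio of Ero1l to Ero1lb per length was 18.1 ± 0.69 in knockouts and 6.64 ± 0.33 in controls (SD, n = 4 each). The fall of Ero1lb did not pass in 8 of 18 alternatives, leaving aside the test against a fold of 1.5, with adjusted p from 0.019 to 0.084 over them. Without knockout replicate 1, 2 or 3 or control replicate 1 or 4, adjusted p was 0.052, 0.051, 0.073, 0.084 and 0.053 in edgeR's test. It was 0.074 without a filter on low counts, 0.056 with the replicate numbers as a block and 0.0502 without genes that share exons.

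The isomerases themselves all rose. Pdia4, the isomerase ERp72, had 371, 425, 345 and 366 CPM in the knockout libraries, against 266, 259, 268 and 264 CPM in the controls, a log2 fold change of 0.51 (SE 0.053, adjusted p = 1.3e-08). Knockout replicate 2 stood above the other 3. P4hb, the founding protein disulfide isomerase, averaged 407 ± 10 CPM in knockouts and 295 ± 7.8 CPM in controls (SD, n = 4 each), at 0.46 (SE 0.043) on the log2 scale. Pdia6, the isomerase P5, averaged 270.3 ± 13 CPM in knockouts and 198 ± 4.9 CPM in controls (SD, n = 4 each), at 0.45 (SE 0.045). Neither pair of groups overlapped. Pdia3, the isomerase ERp57 that works with calnexin and calreticulin and in the loading of MHC class I, had 476, 433, 431 and 486 CPM in the knockout libraries, against 408, 426, 436 and 416 CPM in the controls. Its groups overlapped and the call was marginal, at 0.12 (SE 0.049, adjusted p = 0.043). The call was lost in 12 of the 17 alternatives that gave Pdia3 a value, again leaving aside the fold of 1.5, with adjusted p from 0.021 to 0.17 over them. Without knockout replicate 1 or 4, or control replicate 1, 2 or 4, adjusted p was 0.17, 0.13, 0.12, 0.081 and 0.14 (edgeR). It was 0.15 with upper-quartile scaling, 0.10 with library totals only, 0.080 without a filter, 0.11 with a minimum mean of 1 CPM, 0.070 with halved counts, 0.054 without genes of X and Y and 0.0501 with the replicate numbers as a block.

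Degradation genes had the smallest median of the 6 arms, 0.15, with 5 of 9 higher and 0 lower. At an unadjusted p under 0.05 the count of lower members in this arm was also 0, and DESeq2 called 0. Herpud1, a membrane scaffold of the degradation complex, had 25.3, 26.1, 24.2 and 25.6 CPM in the knockout libraries, against 16.96, 18.8, 18.5 and 18.7 CPM in the controls. Its groups did not overlap, and it gave the largest difference of the arm, 0.47 (SE 0.055, adjusted p = 8.5e-08). Vcp, the ATPase p97 that pulls substrates out of the membrane, averaged 353 ± 11 CPM in knockouts and 279 ± 2.8 CPM in controls (SD, n = 4 each), at 0.34 (SE 0.043). Edem2 and Edem1, which trim mannose from misfolded glycoproteins, rose by 0.44 (SE 0.071) and 0.15 (SE 0.043). Derl1, a membrane rhomboid-like protein of the exit channel, rose by 0.18 (SE 0.046). The core of the ubiquitin ligase gave no call. Syvn1, the ligase HRD1, averaged 9.41 ± 0.49 CPM in knockouts and 9.07 ± 0.53 CPM in controls, at 0.06 (SE 0.074, adjusted p = 0.51). Sel1l, its adaptor, had 71.7, 84.7, 73.8 and 61.6 CPM in the knockout libraries, against 78.8, 77.5, 73.5 and 72.4 CPM in the controls. The knockout libraries spread more widely than the controls and on both sides of them, at -0.05 (SE 0.074, adjusted p = 0.57). Derl2 averaged 21.4 ± 1.1 CPM in knockouts and 21.2 ± 1.3 CPM in controls (SD, n = 4 each), at 0.01 (SE 0.059, adjusted p = 0.92). Derl3, known from secretory cells such as plasma cells, held 6, 22, 14 and 10 counts in knockouts and 19, 12, 6 and 21 in controls, so that a difference was not detectable at this depth, at 0.09 (SE 0.43, adjusted p = 0.87).

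Both translocon genes rose. Sec61a1, the channel itself, averaged 58.3 ± 1.5 CPM in knockouts and 45.7 ± 1.1 CPM in controls, and Sec61b, its small subunit, 24.8 ± 1.7 CPM in knockouts and 21.4 ± 1.3 CPM in controls (SD, n = 4 each), with log2 fold changes of 0.35 (SE 0.044, adjusted p = 2.2e-07) and 0.22 (SE 0.061, adjusted p = 0.0035). Neither gene's groups overlapped.

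The regulatory subunits that direct the phosphatase of eIF2α parted. Ppp1r15a, the stress-inducible subunit GADD34, lies on chr7:45522916-45526268 (minus strand) of GRCm38 and had 79.96, 73.2, 74.02 and 76.1 CPM in the knockout libraries, against 36.5, 41.1, 38.8 and 42.2 CPM in the controls. All knockout libraries stood far above the controls, and its log2 fold change of 0.94 (SE 0.050, adjusted p = 1.3e-13) was second only to Ero1l among the 34. Ppp1r15b, the constitutive subunit CReP, had 99.6, 103, 97.3 and 102 CPM in the knockout libraries, against 94.7, 94.9, 95.7 and 94.1 CPM in the controls. The groups did not overlap but lay close, and the log2 fold change of 0.08 (SE 0.041, adjusted p = 0.079) did not pass. The ratio of Ppp1r15a to Ppp1r15b per length within a library was 1.44 ± 0.075 in knockouts and 0.796 ± 0.054 in controls (SD, n = 4 each). Only the order per length differed between the genotypes, as Ppp1r15b was the higher of the pair in CPM in both. The ratio of this pair and the other ratios of gene pairs are descriptions, with no test. The ratio of Edem1 to Edem2 was 3.89 ± 0.16 in knockouts and 4.76 ± 0.30 in controls, with separate ranges. That of Derl1 to Derl2 was 5.78 ± 0.38 in knockouts and 5.14 ± 0.27 in controls, with ranges that overlapped, as did those of Sec61a1 to Sec61b.

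**Figure D3:**
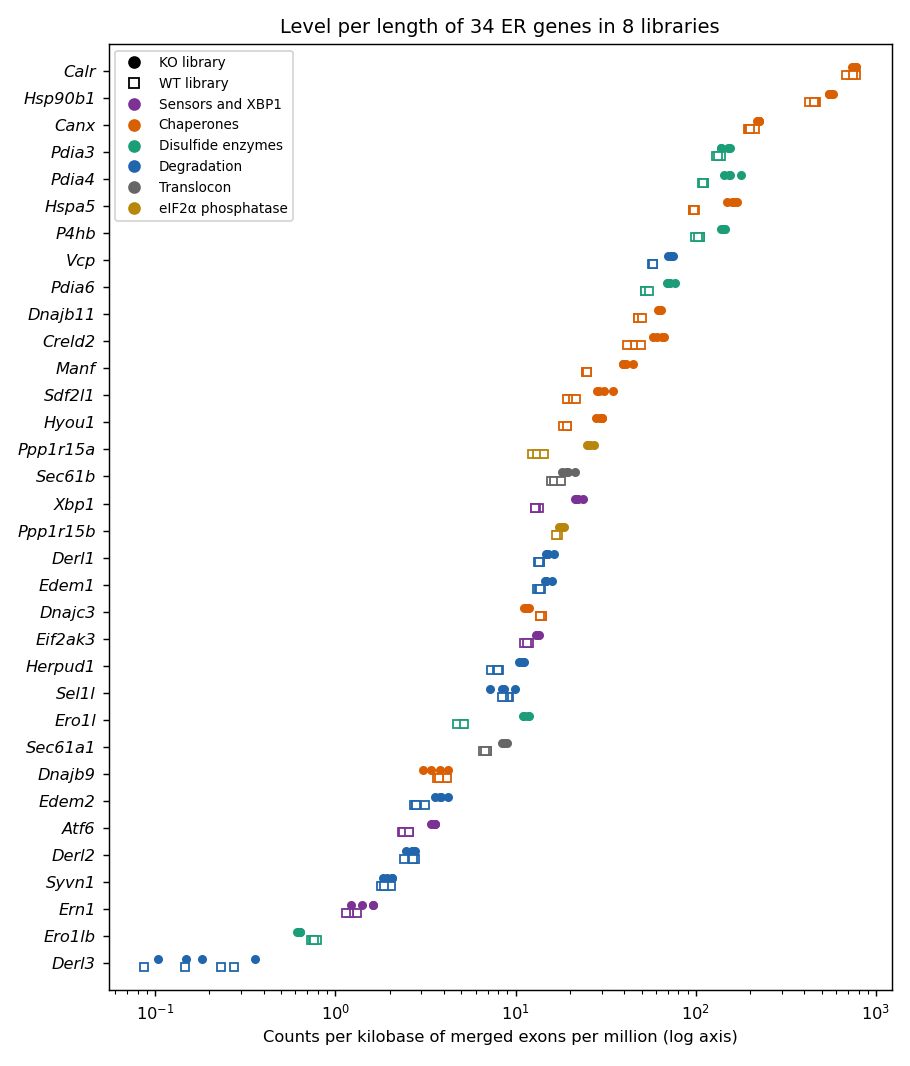
Level in each library, in CPM per kilobase of merged exons, for the 34 genes, on a log axis, ordered by their mean, with filled circles for knockout libraries above open squares for control libraries. Knockout and control means run from 0.198 and 0.185 for Derl3 to 763 and 732 for Calr, and the shift between genotypes is small beside this span.

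Compared per length, the order of the levels was nearly the same in both genotypes. Calr, Hsp90b1 and Canx were the 3 highest, at 763, 560.1 and 223 CPM per kilobase in knockouts and 732, 450.3 and 202 in controls. Hspa5 stood 4th in knockouts at 160.1 ± 8.1 and 7th in controls at 97.4 ± 1.1 (SD, n = 4 each). In knockouts it was not clearly apart from Pdia4 at 157 ± 14 and Pdia3 at 145 ± 9.1, and in controls P4hb at 103 ± 2.7 was its nearest neighbour. Ppp1r15a and Xbp1 were 15th and 16th in knockouts, against 20th and 21st in controls. Dnajc3 was 22nd in knockouts and 17th in controls. Ern1, Ero1lb and Derl3 were the 3 lowest in both. The lengths are those of merged exons in the table, which run up to 9231 bases for Atf6, so a gene with rarely used exons is placed too low.

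The replicates of a genotype lay close together. In the 28 members with a control mean of at least 10 CPM the coefficient of variation was at most 13% in knockouts, with a median of 3.85%, and at most 7.35% in controls, with a median of 2.77%. Sel1l had the highest in knockouts. Knockout replicate 4 gave the highest of the 4 knockout values in 18 of the 34 genes, among them Hspa5, Manf, Xbp1 and Sdf2l1, and knockout replicate 3 the lowest in 13. All values of a library share its depth and scaling, and no test was made of this order.

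Genes with the element were found among those that rose, those that fell and those that did not pass. Of the 10 genes with an ERSE in the window 5 rose, 2 fell and 3 did not pass, with a median log2 fold change of 0.12. Of the 18 with a window and no such match 15 rose, 0 fell and 3 did not pass, with a median of 0.35. Among these 18 are Herpud1 and Dnajb11, which hold ERSE-II. Only exact letters in this window were searched, so a gene without a match may still hold a related element. Both genes that fell, Dnajc3 and Ero1lb (its call was lost in 8 of 18 alternatives), are among the 10. So are Hspa5 with its match 65 bases before the start, and Calr and Syvn1, which did not pass. Among genes without a match are the 3 largest differences, Ero1l, Ppp1r15a and Xbp1. This is a description over members chosen with earlier results known, and the difference between the 10 and the 18 was not tested.

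**Figure D4:**
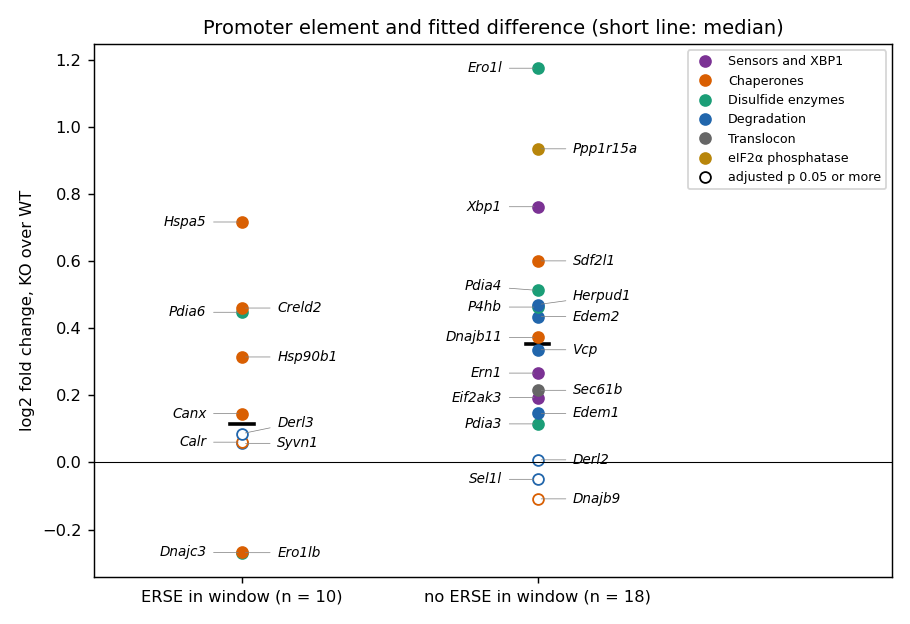
Fitted log2 fold change of knockout over control for the 28 genes with a promoter window, split by whether the window holds an ERSE; points are genes coloured by arm, open points did not pass, and the short line is the median. Medians are 0.12 for the 10 genes with an exact match and 0.35 for the 18 without, among which Herpud1 and Dnajb11 hold ERSE-II.

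The rest of the secretory pathway was followed in 7 further lists of 154 genes, of which 145 were tested. Of these 83 rose and 24 fell (57.2% and 16.6%), with a median of 0.25, against 32.8% and 31.6% of all tested genes. Translocation and glycosylation genes gave 28 of 37 higher and 5 lower (median 0.30), and export and retrieval genes 13 of 19 higher and 2 lower (median 0.29). Other disulfide enzymes gave 10 of 17 higher and 4 lower (median 0.34), glycan quality control 6 of 13 higher and 3 lower (median 0.18). Other chaperones gave 10 of 21 higher and 2 lower (median 0.10), other degradation genes 10 of 24 higher and 4 lower (median 0.07). Upstream regulators gave 6 of 14 higher and 4 lower (median -0.01). Among all genes with a mean of at least 10 CPM, 43.4% rose and 34.2% fell. The higher shares of other degradation genes (41.7%), upstream regulators (42.9%) and glycan quality control (46.2%) lay near that 43.4%. These counts are descriptions and no difference between lists was tested.

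The 3 most abundant tested genes of each list, per length, show the spread. Among regulators Rtcb, the ligase that rejoins cleaved Xbp1 RNA, rose by 0.26 (SE 0.042) and Nfyb, a subunit of the CCAAT-binding factor NF-Y, by 0.12 (SE 0.045). Creb3, a relative of ATF6, fell, at -0.25 (SE 0.059). Among chaperones the prolyl isomerase Fkbp2 stood at 149 ± 8.8 CPM in knockouts and 160.0 ± 11 CPM in controls, and Ppib, another, at 271 ± 23 CPM in knockouts and 265 ± 7.8 CPM in controls (SD, n = 4 each), and neither passed. Cnpy4 fell, at -0.18 (SE 0.048). Among disulfide enzymes Erp44, which retains oxidases and client proteins, and Erp29 rose by 0.27 (SE 0.045) and 0.24 (SE 0.046), and Txndc12 stood at 66.9 ± 0.99 CPM in knockouts and 66.2 ± 4.6 CPM in controls and did not pass.

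In glycan quality control Os9, a lectin that hands misfolded glycoproteins to the HRD1 complex, fell to 335 ± 14 CPM in knockouts, against 463 ± 29 CPM in controls (SD, n = 4 each), at -0.46 (SE 0.050, adjusted p = 2.7e-08). Prkcsh, the beta subunit of glucosidase II, rose by 0.18 (SE 0.042) and the cargo lectin Lman2 by 0.25 (SE 0.045). In degradation Ubxn4, a membrane recruiter of p97, rose by 0.35 (SE 0.044). Rnf5, a ubiquitin ligase, fell, at -0.29 (SE 0.085, adjusted p = 0.010 in edgeR's test). Its groups overlapped, with knockout replicate 1 at 53.9 CPM and control replicate 3 at 51.5 CPM. Selenok stood at 122 ± 7.4 CPM in knockouts and 116 ± 5.3 CPM in controls and did not pass. The signal recognition particle genes Srp54a and Srp14 rose by 0.32 (SE 0.042) and 0.39 (SE 0.049), where Srp54a has near-identical copies and its counts may be divided among them. Spcs2, of the signal peptidase, stood at 315 ± 5.8 CPM in knockouts and 279 ± 42 CPM in controls (SD, n = 4 each) and did not pass. In export the vesicle cargo receptors Tmed2 and Tmed9 rose by 0.40 (SE 0.045) and 0.11 (SE 0.044), and the coat subunit Sec24c at 119.7 ± 1.7 CPM in knockouts and 122 ± 1.1 CPM in controls did not pass.

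**Figure D5:**
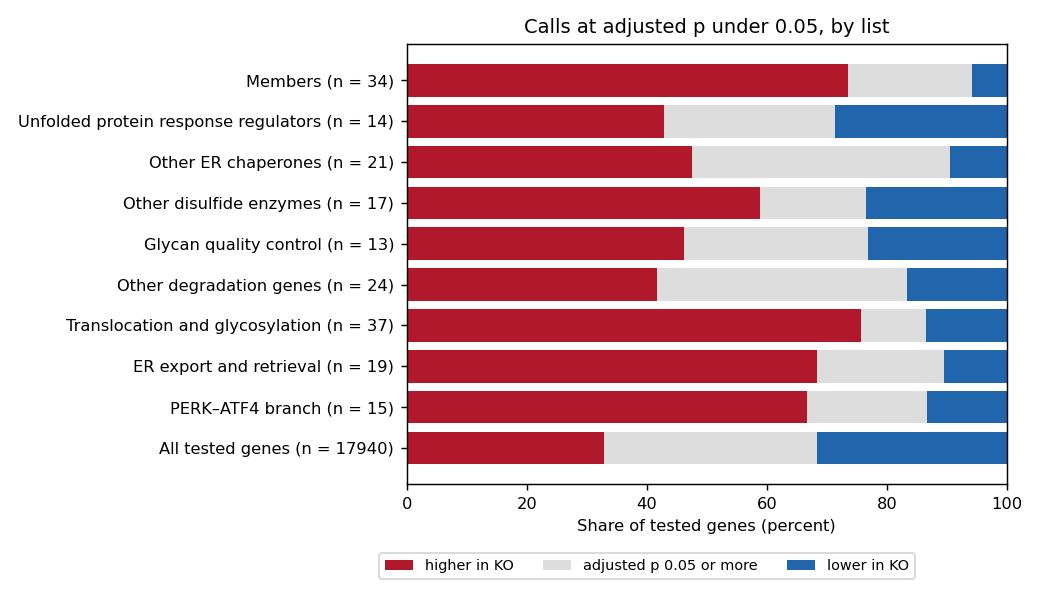
Share of the tested genes of each list that were called higher in knockouts, not called, or called lower, with the 34 members at the top and all tested genes at the bottom. The members and the translocation and glycosylation list have the longest bars for higher calls, and all tested genes are split about evenly between higher and lower.

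A list of 15 genes around PERK, eIF2α and ATF4 had 10 higher (66.7%) and 2 lower (13.3%), with a median of 0.58. Of all tested genes 32.8% rose and 31.6% fell, and of those with a mean of at least 10 CPM 43.4% and 34.2%. The list is not confined to genes below PERK, so it does not read PERK alone. Atf4, the transcription factor whose translation rises when eIF2α is phosphorylated, averaged 509 ± 37 CPM in knockouts and 246 ± 3.5 CPM in controls (SD, n = 4 each), at 1.05 (SE 0.050, adjusted p = 1.6e-14). Eif2s1, which encodes eIF2α, rose by 0.63 (SE 0.050), and Atf5, a related factor, at 75.8 ± 7.0 CPM in knockouts and 80.1 ± 7.5 CPM in controls did not pass. Ddit3, the death-linked factor CHOP that is induced through PERK and was named after its values were seen, had 41.3, 40.3, 41.9 and 44.2 CPM in the knockout libraries, against 38.7, 37.7, 39.9 and 39.6 CPM in the controls. The groups were separate but close, and the log2 fold change of 0.11 (SE 0.047, adjusted p = 0.051) did not pass.

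The calls of the members were stable under other processing with few exceptions. Of the 27 called members 25 kept their call and direction under all 18 alternatives in which a value was given, other than the test against a fold of 1.5. The other 2 were Pdia3 and Ero1lb. Exons of 12 members overlap those of another gene, and the sources used here do not say whether strand was used in counting, so their counts may include reads of the neighbour. The shared part was at most 11.4% of the member's exonic bases for a single neighbour, in Ppp1r15b. With all genes that share exons left out of the fit, 22 members were left, of which 16 rose and 1 fell. Genes named from the further lists share exons too, among them Rtcb, Creb3, Ppib, Erp29, Rnf5, Sec24c, Atf5, Pdia2 and Txndc16. Their counts have the same limit.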

How the data were processed

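The values are the authors' deposited counts of reads per gene in 8 libraries, 1 table for the whole series, not normalized, with the exon coordinates and merged exon length of each gene. Per the submitters' processing notes, Trimmomatic 0.36 and featureCounts of Subread 1.5.1 were used with the mouse build GRCm38; not given in the sources used here: aligner, annotation release, strand setting. Of the summed counts of genes with 1 to 10 counts in a library, 87.0% to 88.7% came from genes with an even count. Both mates of read pairs were therefore probably counted, which makes counting error larger than the counts imply. A count of 0 then allows up to 3 read pairs, or 6 counts, which is 0.0974 to 0.138 CPM and covers counting error only.

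Genes that passed filterByExpr (17940 of 49492) were scaled by TMM and tested, KO against WT, with edgeR 4.0.16 (glmQLFit robust, glmQLFTest, two-sided) in R 4.3.3, and p-values were adjusted by the Benjamini-Hochberg method over all of them at a threshold of 0.05. The standard error of a log2 fold change is its size over the square root of F. CPM values use the TMM-scaled library sizes, and levels between genes are compared per kilobase of the deposited length. The steps were checked on simulated counts. Other scalings, filters, DESeq2 1.42.0, glmTreat against a fold of 1.5, a replicate block, fits without some genes and fits without each library were run as alternatives. Motifs were searched in RefSeq promoter windows. The text names all 34 members, the 3 tested genes of each further list with the highest mean level per length, summed marker lists and the sex-linked and targeted genes. The members and all lists were chosen with earlier results of these data known. With counts halved for the mates, the median squared difference of a gene between libraries was 28.4 to 39.1 times its sampling variance in the 16 pairs of a knockout and a control, and 1.69 to 4.47 times in the 12 pairs of like genotype. All 8 libraries were counted as separate samples, and these ratios do not tell technical from biological scatter.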

Additional observations from a re-analysis of the deposited data

Results flagged for a closer look

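In 4 of the 68 groups of 4 libraries examined (34 genes in each genotype), 1 library stood apart from the other 3 by Dixon's criterion, and chance gives about 5% of groups. Edem1 stood at 102.9 CPM in knockout replicate 4, against 94.6 to 95.7 CPM in the other knockouts. Canx stood at 1005.6 CPM in control replicate 1, against 919 to 933 CPM in the other controls, and all 4 knockouts lay above it. Hyou1 stood at 132.6 CPM in control replicate 3, against 138 to 139 CPM in the other controls, and all 4 knockouts lay above these. Derl2 stood at 19.3 CPM in control replicate 3, against 21.7 to 22.2 CPM in the other controls, and its log2 fold change without that library was -0.04.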

How the results depend on the processing

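Of the 27 called members 25 kept their call and direction in all alternatives that gave them a value, other than the test against a fold of 1.5; Pdia3 and Ero1lb did not. Upper-quartile scaling gave medians of 0.29 for the members, 0.34 for the chaperones and 0.12 for the degradation genes, and the chaperone median was 0.35 both with library totals only and with a minimum mean of 1 CPM. Without a filter on low counts, and with the replicate block, 1 member fell, and 0 disulfide genes did. Without 1 library at a time the members that fell numbered 1 to 2, the disulfide genes 0 to 1, and the degradation median ran from 0.14 to 0.18. Without genes that share exons, a fit with fewer genes by construction, 7312 genes were called (3693 higher, 3619 lower), with 16 members higher and 1 lower, 2 disulfide genes higher and 0 lower, 1 translocon gene higher, 0 phosphatase genes because both share exons and none was left, and medians of 0.18 for degradation genes and 0.53 for sensors. Against a fold of 1.5, 3145 genes were called (1516 higher, 1629 lower), with 5 members higher and 0 lower, among them 2 chaperones, 1 disulfide gene, 1 sensor, 0 degradation and 0 translocon genes higher, and 0 chaperones and 0 disulfide genes lower. Uncalled genes that changed sign were Derl2 (-0.023 with upper-quartile scaling, -0.013 with totals only, -0.0070 without a filter, -0.017 with a minimum mean of 1 CPM, -0.0077 with halved counts, and -0.039 to 0.036 without 1 library at a time), Derl3 (-0.34 to 0.32 without 1 library) and Sel1l (-0.13 to 0.018 without 1 library). Where no construction shows it, the cause was not tested. No scaling moved the median of all genes by over 0.1 on the log2 scale. Replicate numbers did not pair the libraries: same-numbered deviations correlated at 0.0049 to 0.057, and 3 of 8 libraries correlated best with their own number. With the replicate block 11516 genes were called, 24 members higher and 1 lower; Pdia3 (adjusted p = 0.0501) and Ero1lb (adjusted p = 0.0561, edgeR) lost their calls. Depth limits Derl3, at 6 to 22 counts a library.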

Other observations

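The few genes of the further lists that passed a fitted 2-fold difference were named after their values were seen. Fkbp9, a prolyl isomerase of the compartment, stood at 0.928 ± 0.17 CPM in knockouts and 0.220 ± 0.089 CPM in controls (SD, n = 4 each). Pdia2, an isomerase best known from pancreas, stood at 0.837 ± 0.19 CPM in knockouts and 0.326 ± 0.099 CPM in controls, and Txndc16, a thioredoxin-domain protein, at 10.7 ± 1.8 CPM in knockouts and 24.02 ± 0.95 CPM in controls (SD, n = 4 each). Fkbp9 and Pdia2 were higher in the knockouts and Txndc16 lower, by edgeR's test. From the list around PERK, eIF2α and ATF4, further genes were named likewise after their values were seen. Nupr1, a stress-induced nuclear protein, stood at 14.1 ± 0.20 CPM in knockouts and 2.74 ± 0.30 CPM in controls, and Sesn2, a leucine sensor and ATF4 target, at 14.2 ± 0.53 CPM in knockouts and 6.09 ± 0.48 CPM in controls (SD, n = 4 each). Asns, the asparagine synthetase and a classic ATF4 target, stood at 87.7 ± 4.1 CPM in knockouts and 48.2 ± 0.77 CPM in controls, and Trib3, a pseudokinase induced by ATF4, at 22.5 ± 1.8 CPM in knockouts and 15.1 ± 0.51 CPM in controls (SD, n = 4 each). These 4 rose too, with log2 fold changes of 2.36, 1.22, 0.86 and 0.58, while the kinase gene Eif2ak2 and the adaptor gene Nck1 fell, at -0.42 (SE 0.055) and -0.42 (SE 0.055).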
